A study of Mus musculus with 23 samples.

Results

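Mucins, trefoil factors and the proteins that fold or accompany them form the mucous coat of glandular epithelia, and 10 genes of that programme were followed here across pancreatic ductal adenocarcinoma (PDAC) organoids of the mouse. The genes, chosen by symbol with their levels in these libraries already known, were Muc5ac, Muc1, Muc13, Tff1, Tff2, Tff3, Agr2, Spdef, Clca1 and Msln. They are 10 of the 27207 genes listed in the count table, and 9 of them were among the 11144 genes with enough counts to be tested. Because the choice used counts from every group, the fold changes and adjusted p-values below describe these genes and are no independent evidence for any pattern among them.

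The study followed how single tumor cells grow into branched organoids in floating collagen gels. Bulk 3′-end RNA sequencing with unique molecular identifiers (UMIs, tags that let copies of the same molecule be counted as 1) gave 23 libraries in 6 groups. Tumor cells of the genotype labelled KC, with the Cre driver Ptf1aCre/+, came from 1 mouse (number 9591), and those labelled KPC, with the driver Pdx1Cre/+, came from another mouse (number 14390). The KC groups of batch 1 were cells grown flat on plastic (2D, n = 6), organoids in Matrigel at day 13 (n = 3), and organoids in rat tail collagen I at day 7 (n = 3) and at day 13 (n = 5). Batch 2 held KC organoids (n = 3) and KPC organoids (n = 3), both in collagen at day 13. The labels number the libraries of a group as biological replicates of its line, so the spread in each group is the spread between cultures of 1 line and not between mice. Both lines are tumor lines, so no group stands for normal ductal cells. KPC and KC organoids differ in genotype, mouse of origin and Cre driver, and these cannot be told apart. Cells in 2D were lysed directly whereas organoids were first freed from their gel with collagenase, so growth in 2D and the way of harvest cannot be told apart.

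Secreted mucins such as Muc5ac are assembled into disulfide-linked polymers in the endoplasmic reticulum and Golgi, heavily O-glycosylated and released as a gel, while membrane mucins such as Muc1 stay anchored at the apical surface. Trefoil factors are small, disulfide-rich peptides that are secreted together with mucins and take part in repair of the epithelium. The normal pancreatic duct makes little gel-forming mucin and few trefoil peptides, whereas its precursor lesions take up a gastric-like mucous programme.

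Total counts per library ran from 1221451 to 2471058, with a median of 1845921. Values are given as CPM, the counts of a gene scaled to the library's TMM-adjusted total, and 3 counts, the most that a count of 0 allows, amounted to 1.16 to 3.22 CPM. The 11 ductal markers examined (keratins, Epcam, Sox9 and others) had a summed level of 7226 to 14197 CPM. Of these, Cldn4 had at most 1 count in any KC library and 5 to 8 in KPC libraries. The other ductal markers rose above the floor of 3 counts in every group, and Cldn4 in KPC organoids alone. Of the markers of other cells that have a row in the count table, 2 of 6 acinar, 0 of 3 endocrine, 5 of 10 fibroblast, 2 of 6 immune, 1 of 7 endothelial and 4 of 9 mesothelial genes did so in at least 1 library. Their summed levels were 3.41 to 21.5 CPM (acinar), at most 0.589 CPM (endocrine), 11.1 to 54.8 CPM (fibroblast), 4.57 to 37.1 CPM (immune), 4.73 to 26.6 CPM (endothelial) and 13.9 to 107 CPM (mesothelial). The 2D libraries fell into 2 sets on the first principal component, replicates 1 to 3 against replicates 4 to 6, and values for both sets are given where it matters.

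The whole set of 10 genes took up the smallest part of the RNA in collagen at day 7, where it held 0.261% to 0.334% of all counts. In 2D it held 0.577% to 0.645%, in Matrigel 1.33% to 1.52% and in collagen at day 13 1.53% to 2.20%. The batch 2 organoids held 2.55% to 2.74% in the KC line and 1.34% to 1.91% in the KPC line. Tff1 had the most counts of the 10 genes in each group, so these percentages lean on it, and to an unlike degree. It gave 26399 of the 43121 counts of the set in batch 2 KC replicate 1, and 2504 of 7334 in 2D replicate 1. In bulk libraries, fewer cells making a transcript and less transcript per cell cannot be told apart. The plot of all 10 genes by library shows that 9 of them had their lowest group mean in collagen at day 7, where Msln had its highest. For Muc5ac, Muc13, Tff2 and Spdef the day 7 libraries overlapped the next lowest group, and for Msln they overlapped KPC organoids. Muc13 and Spdef were under 3 counts in every library of day 7 and of 2D, their next lowest group. The share of all genes with their lowest mean at day 7 was not counted.

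**Figure D1:**
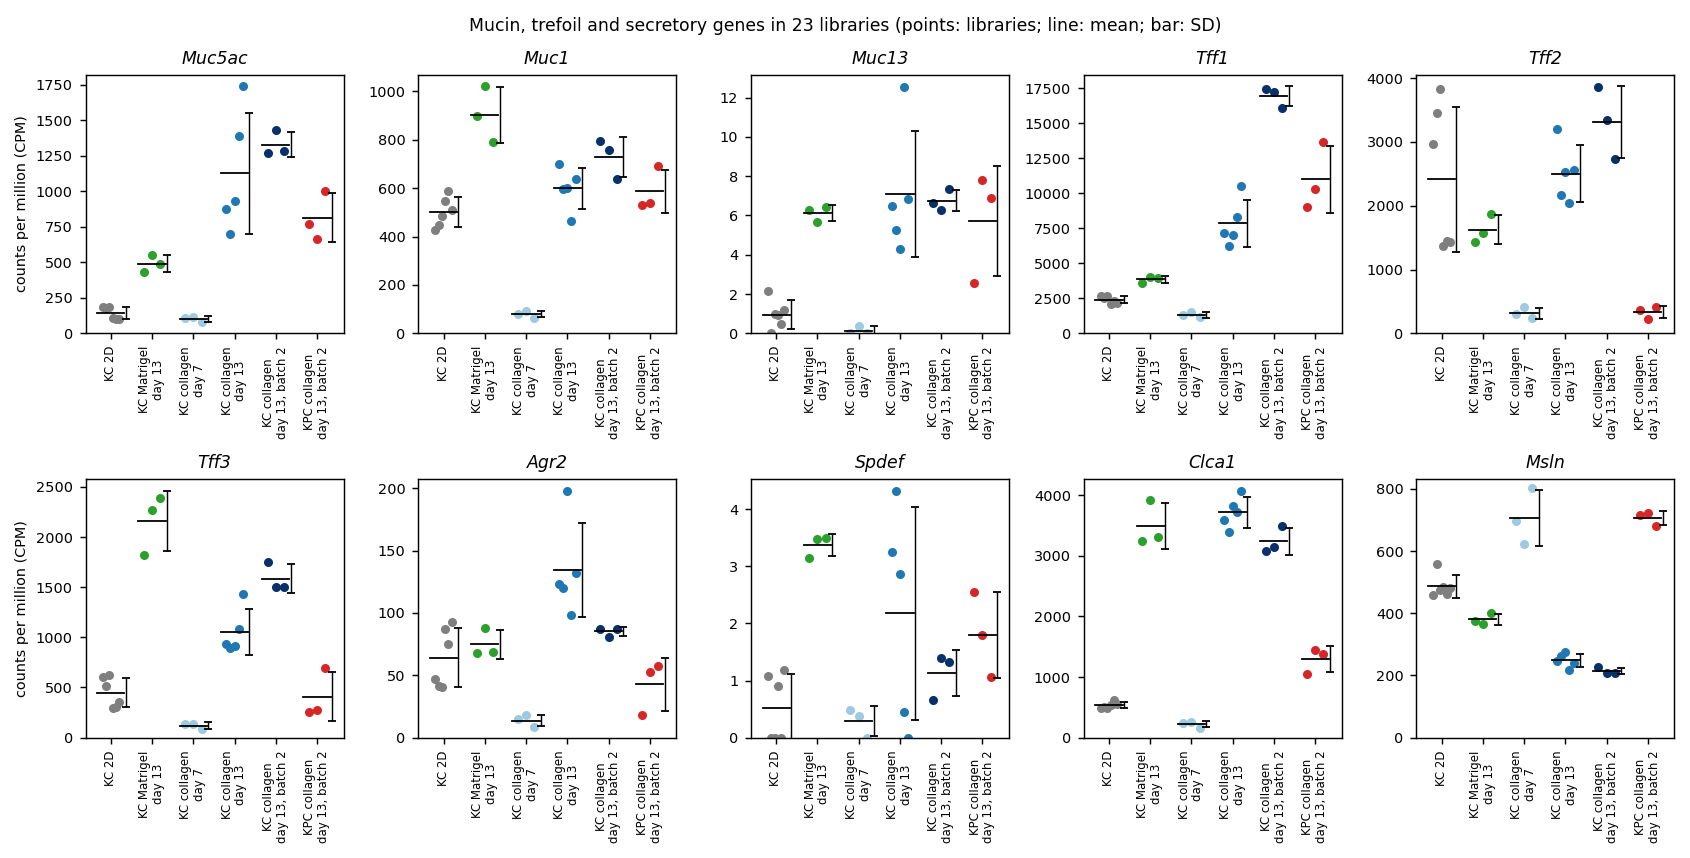
CPM of each of the 10 genes (vertical axis, from 0) in the 23 libraries, split by group (horizontal axis); points are libraries, lines are group means and bars are SD. In 9 panels the day 7 collagen libraries have the lowest group mean, overlapping the next lowest group for Muc5ac, Muc13, Tff2 and Spdef. For Msln they sit between 623 and 803 CPM, well above the 218 to 274 CPM of collagen at day 13.

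Muc5ac, the gel-forming mucin of the gastric surface, was measured at 107, 115 and 78.0 CPM in the 3 collagen libraries of day 7. At day 13 the 5 libraries held 873, 702, 934, 1388 and 1741 CPM. Every day 13 library was above every day 7 library, and replicates 4 and 5 stood above the other three. Batch 2 gave 1272, 1431 and 1283 CPM in KC and 772, 668 and 1005 CPM in KPC organoids. Matrigel organoids held 431, 553 and 491 CPM, below each collagen library of day 13. In 2D the level ran from 97.5 to 187 CPM with a median of 142, overlapping the day 7 collagen libraries; replicates 1 to 3 were at 179 to 187 CPM and replicates 4 to 6 at 97.5 to 105.

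Muc1, a membrane mucin with a signalling cytoplasmic tail, was at 79.9, 90.7 and 65.2 CPM in collagen at day 7. The other 5 groups lay between 426 and 1022 CPM. Matrigel gave its highest group mean, with libraries at 898, 1022 and 789 CPM, against 699, 597, 600.1, 464 and 636 CPM in collagen at day 13. Neighbouring groups in the order from Matrigel through batch 2 KC, batch 1 KC, KPC and 2D overlapped with each other, and the step from 2D (426 to 589 CPM, median 498) down to day 7 was the only one without overlap.

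Muc13, a membrane mucin of the gut lining, was close to the limit of detection. Its counts at day 7 in collagen were 0, 1 and 0, and in 2D they were 0 to 2, or at most 2.15 CPM. At day 13 in collagen it had 14, 11, 9, 28 and 13 counts, or 4.31 to 12.5 CPM. Matrigel libraries had 16, 13 and 11 counts, batch 2 KC libraries 10, 9 and 11 and KPC libraries 4, 13 and 13. Every day 13 library thus had more counts than any day 7 or 2D library, though few in all. An antisense gene, Gm15657, lies over Muc13 on the opposite strand and had at most 1 count in a library.

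Muc1 (chromosome 3, 89229057 to 89233381, plus strand, GRCm38) and Muc13 (chromosome 16, 33794037 to 33819934, plus strand) are both protein coding and both were lower at day 7 than at day 13. They are the 2 mucins with a matched promoter, and these promoters are shown. The sequences are the 250 bases before the RefSeq start site in GRCm38.p6, at chr3:89228806-89229055 for Muc1 and chr16:33793787-33794036 for the more upstream of the 2 Muc13 start sites, read 5′ to 3′ on the plus strand. Capitals mark matches on either strand to TATAAA (the TATA box), TGANTCA (the AP-1 type site), GTAAACA (the forkhead type site), CACCTG (the E-box read by Snail and Zeb factors) and GGGCGG (the GC box).
Muc1 promoter: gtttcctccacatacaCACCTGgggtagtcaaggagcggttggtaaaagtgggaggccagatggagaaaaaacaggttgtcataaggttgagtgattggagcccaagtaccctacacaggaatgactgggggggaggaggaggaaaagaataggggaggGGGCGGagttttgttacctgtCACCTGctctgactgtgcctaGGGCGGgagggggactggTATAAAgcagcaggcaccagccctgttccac
Muc13 promoter: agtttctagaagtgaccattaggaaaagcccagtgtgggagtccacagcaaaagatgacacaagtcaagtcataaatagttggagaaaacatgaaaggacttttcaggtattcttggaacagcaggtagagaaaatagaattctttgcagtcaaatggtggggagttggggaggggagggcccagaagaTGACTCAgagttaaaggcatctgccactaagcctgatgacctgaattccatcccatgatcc
The Muc1 window held TATAAA 31 bases before the start site, 2 matches to GGGCGG and 2 to CACCTG. The Muc13 window held TGANTCA 61 bases before its start site and none of the other motifs. The window of the other Muc13 start site, not shown, held TGANTCA 179 bases before that site. Among all 32851 promoter windows of this length, 12.4% held TATAAA, 6.75% TGANTCA, 3.17% GTAAACA, 17.2% CACCTG and 32.7% GGGCGG. Promoters of 4 of the 10 genes were matched by symbol. The others, Agr2 and Spdef, are not shown, and their windows held none of the 5 motifs. Agr2 was also lower at day 7. These matches describe letters only, and binding was not measured.

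The 3 trefoil genes lie in a row on the minus strand of chromosome 17, Tff3 at 31125306 to 31129646, Tff2 at 31141049 to 31144282 and Tff1 at 31161395 to 31165277, with 11402 bases between Tff3 and Tff2 and 17112 between Tff2 and Tff1. Although they are neighbours, their levels followed different orders across the groups.

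Tff1, the trefoil peptide of gastric pit cells, was lowest in collagen at day 7, at 1300.3, 1549 and 1139.9 CPM. In 2D it was at 2077 to 2689 CPM with a median of 2405, and in Matrigel at 3595, 4009.5 and 3982 CPM. Collagen organoids of day 13 were all higher, with 7162, 6253, 7009, 8304 and 10535 CPM in batch 1. Batch 2 held 17481, 17217 and 16117 CPM in KC and 9018, 10312 and 13664 CPM in KPC organoids. The KC libraries of the 2 batches did not overlap, whereas the KPC range overlapped that of batch 1 KC. An antisense gene, Gm15318, overlaps Tff1 and had 0.673 to 1.60 counts for every 100 counts of Tff1 across the libraries. The sources used here do not state whether counting used strand, and without strand the reads of such a pair cannot be told apart.

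Tff2, the trefoil peptide of mucous neck cells and Brunner glands, was at 309, 408 and 237 CPM in collagen at day 7 and at 359, 232 and 409 CPM in KPC organoids. KC organoids of batch 2 held 3859, 3341 and 2736 CPM, so every KPC library was far below every KC library of its batch. Batch 1 collagen organoids of day 13 held 3207, 2167, 2536, 2049.8 and 2561 CPM, and Matrigel organoids 1427, 1568 and 1876 CPM. The 2D libraries split on this gene, with 2965, 3460.0 and 3827 CPM in replicates 1 to 3 and 1369, 1442 and 1424 CPM in replicates 4 to 6.

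Tff3, the trefoil peptide of intestinal goblet cells, was highest in Matrigel, at 1819, 2271 and 2392 CPM. Collagen organoids of day 13 held 933, 896, 916, 1088 and 1433 CPM in batch 1 and 1752, 1506 and 1503 CPM in batch 2, below every Matrigel library. KPC organoids held 254, 280.1 and 695 CPM, with replicate 3 apart from the others. The 2D libraries ran from 299.5 to 620.1 CPM with a median of 436, replicates 1 to 3 being the higher ones, and the day 7 collagen libraries held 138, 139 and 84.0 CPM, below all other groups.

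The share of each trefoil gene within the trefoil counts of a library, which does not depend on the scaling between libraries, differed between groups. In KPC organoids Tff1 made up 93.8% ± 1.38 (SD, n = 3), Tff2 2.88% ± 0.797 and Tff3 3.31% ± 1.21. In KC organoids of the same batch the shares were 77.6% ± 1.77, 15.1% ± 1.64 and 7.27% ± 0.394. None of these 3 shares overlapped between the KPC and KC libraries. Matrigel organoids had the highest Tff3 share, 28.2% ± 1.37, against 9.20% ± 0.671 (n = 5) in collagen at day 13. In 2D the Tff2 share was 43.8% ± 8.64 (n = 6), above the 22.3% ± 4.55 of day 13 collagen and the 17.8% ± 1.61 of day 7 collagen. That 2D mean lies between the 2 sets, at 47.4% to 53.8% in replicates 1 to 3 and 35.8% to 36.6% in replicates 4 to 6. From day 7 to day 13 the mean Tff1 share moved from 75.5% ± 2.25 to 68.5% ± 3.97. The level of all 3 genes was several-fold lower at day 7, while the mean shares of Tff1 and Tff3 stayed closer to those of day 13 collagen than to those of Matrigel.

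**Figure D2:**
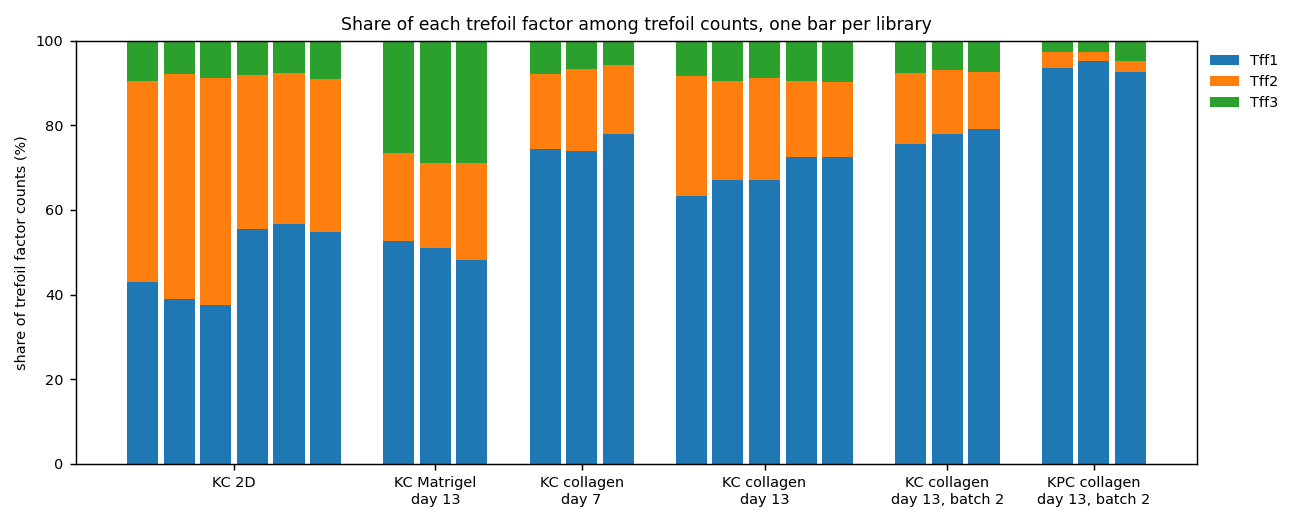
Share of Tff1, Tff2 and Tff3 (vertical axis, percent) among the trefoil counts of each library, with 1 stacked bar per library grouped by culture. Tff3 is widest in the 3 Matrigel bars, at 26.6% to 29.0%, and Tff1 takes 92.5% to 95.3% of each KPC bar.

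Agr2, a protein disulfide isomerase of the endoplasmic reticulum needed for folding of secreted mucins, was at 14.7, 17.8 and 8.53 CPM in collagen at day 7. At day 13 it was at 123, 119.9, 198, 98.5 and 132 CPM in batch 1 and at 87.4, 80.9 and 87.3 CPM in batch 2. Matrigel organoids held 67.7, 88.1 and 68.8 CPM. KPC organoids were spread widely, at 18.5, 52.7 and 57.5 CPM, with replicate 1 near the day 7 range. In 2D Agr2 went from 40.4 to 93.0 CPM with a median of 61.1, and here replicates 4 to 6 (74.9 to 93.0 CPM) were above replicates 1 to 3 (40.4 to 47.3 CPM), the opposite order from Tff2.

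Spdef, an ETS family transcription factor that drives goblet cell maturation, was hardly detected and did not pass the filter on low counts. Its counts were 8, 8 and 6 in Matrigel, 7, 9, 6, 1 and 0 in collagen at day 13, 1, 1 and 0 at day 7 and 0 to 2 in 2D. Batch 2 held 1, 2 and 2 counts in KC and 4, 3 and 2 in KPC organoids. The 5 day 13 libraries split on Spdef, replicates 1 to 3 having 6 to 9 counts and replicates 4 and 5, which had the most Muc5ac, at most 1. No fold change is given for Spdef, since 3 of the 6 groups were at or under 3 counts in every library.

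Clca1, a secreted protein of goblet cells from the family of calcium-activated chloride channel regulators, separated the groups into steps. Day 13 KC organoids held 3587, 3394, 3823, 3729.7 and 4077 CPM in collagen, 3253, 3923 and 3305 CPM in Matrigel and 3075, 3141 and 3501 CPM in batch 2. These 3 groups overlapped with each other. Below them, without overlap, came KPC organoids at 1053, 1450.2 and 1377 CPM, then 2D at 485 to 621 CPM with a median of 524. Day 7 collagen came last at 245, 253 and 162 CPM. Day 13 KC organoids were thus set apart from KPC organoids, day 7 organoids and 2D cells on this gene.

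Msln, encoding the surface glycoprotein mesothelin of mesothelium and many pancreatic carcinomas, ran against the rest. It was at 696, 623 and 803 CPM in collagen at day 7 and at 716, 722 and 682 CPM in KPC organoids, and these groups overlapped. In 2D it was at 459.6 to 559 CPM with a median of 478. Matrigel organoids held 375, 365 and 402 CPM, and KC collagen organoids of day 13 were lowest, with 248, 262, 274, 218 and 241 CPM in batch 1 and 226, 207 and 209 CPM in batch 2. Its partner Muc16, a membrane mucin that binds mesothelin, had a mean of at most 0.200 CPM in any group. Of the 9 mesothelial markers, Muc16 included, 4 passed 3 counts in a library, and the summed level of all 9 was 13.9 to 107 CPM; their part in the level of Msln was not tested.

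Fold changes between groups were fitted with edgeR over all 11144 tested genes, a gene being called at a Benjamini-Hochberg adjusted p under 0.1. The comparisons within batch 1 share libraries with each other, so they are given side by side and their calls are not counted as separate evidence.

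Between day 7 and day 13 in collagen, the interval in which branches thicken and lumens form, all 9 tested genes changed. Of these 8 were lower at day 7 and 1, Msln, was higher. Over all tested genes 27.1% were called lower and 28.1% higher at day 7. The log2 fold change at day 7 was -4.08 ± 0.17 (SE) for Clca1, -3.49 ± 0.29 for Muc5ac, -3.28 ± 0.34 for Agr2 and -3.13 ± 0.32 for Tff3. For Tff2 it was -2.98 ± 0.33, for Muc1 -2.93 ± 0.17 and for Tff1 -2.56 ± 0.18, while Msln was up by 1.51 ± 0.10. For Muc13, with 1 count in all at day 7 and 75 at day 13, the ratio of summed counts per unit of library size was 49.9 (95% exact conditional interval 8.69 to 1997, counting error only). The groups did not overlap for any of the 9 genes, but the share of all tested genes without overlap was not counted. The largest edgeR adjusted p was 9.25e-07, for Muc13. The median log2 fold change of the 9 genes was -3.13, and -3.05 without Muc13, beside 0.01 over all tested genes.

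In Matrigel against collagen at day 13 the mucous genes moved in both directions. Organoids were rounded in Matrigel and branched in the floating collagen gels, so matrix, gel format and organoid shape cannot be told apart. Tff3, Muc1 and Msln were higher in Matrigel and Muc5ac, Tff1 and Agr2 lower, that is 3 higher and 3 lower of 9, beside 6.62% higher and 6.29% lower over all tested genes. The log2 fold change was 1.04 ± 0.27 (SE) for Tff3, 0.59 ± 0.14 for Muc1 and 0.61 ± 0.10 for Msln. It was -1.20 ± 0.26 for Muc5ac, -1.02 ± 0.17 for Tff1 and -0.84 ± 0.27 for Agr2. Each of these 6 genes was free of overlap between the groups, and the share of all tested genes without overlap was again not counted. Clca1 (-0.09 ± 0.14, edgeR adjusted p = 0.800) and Muc13 (-0.22 ± 0.34, edgeR adjusted p = 0.802) did not pass. Tff2 did not pass either (-0.63 ± 0.29, edgeR adjusted p = 0.212), although its groups did not overlap, and it passed when the 2 groups were fitted alone (edgeR adjusted p = 0.00380). The call for Agr2 was narrow: its edgeR adjusted p was 0.0519, and became 0.192 with scaling by library size alone, 0.210 against all 8 KC collagen libraries of day 13, 0.193 without Matrigel replicate 1, 0.174 without Matrigel replicate 3 and 0.144 without collagen replicate 3.

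KPC organoids were compared with KC organoids of the same batch, culture and day. Of the 9 genes 6 were lower in KPC organoids, beside 10.4% of all tested genes, and 1 was higher, beside 9.58%. Among the lowered genes Tff2 changed most, with a log2 fold change of -3.31 ± 0.35 (SE), followed by Tff3 at -1.95 ± 0.32 and Clca1 at -1.32 ± 0.16. Msln was higher by 1.72 ± 0.12 (edgeR adjusted p = 3.14e-10). Agr2 (-0.97 ± 0.33, edgeR adjusted p = 0.0463), Muc5ac (-0.70 ± 0.28, edgeR adjusted p = 0.0893) and Tff1 (-0.62 ± 0.18, edgeR adjusted p = 0.0206) were called lower. Muc1 (-0.31 ± 0.16) and Muc13 (-0.21 ± 0.43) did not pass, with edgeR adjusted p of 0.218 and 0.812. Without KPC replicate 1 the called genes were 4 in place of 7, the edgeR adjusted p becoming 0.212 for Agr2, 0.214 for Muc5ac and 0.125 for Tff1. The share of all tested genes called in that fit was not counted. Muc5ac also missed the threshold without any single KC library of batch 2 (edgeR adjusted p 0.147 to 0.217) and without KPC replicate 2 (0.269). Against all 8 KC collagen libraries of day 13, batches 1 and 2 together, the difference in Tff1 was -0.03 ± 0.26 (edgeR adjusted p = 0.944).

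The same KC line in collagen at day 13 was sequenced in both batches. Tff1 was higher in batch 2 by 1.11 ± 0.16 (SE, log2 fold change; edgeR adjusted p = 9.07e-06) and Agr2 lower, at -0.66 ± 0.28 (edgeR adjusted p = 0.0747), that is 1 of 9 genes in each direction, beside 19.3% called higher and 18.1% lower over all tested genes. Tff3 was at 0.59 ± 0.27 (edgeR adjusted p = 0.102) with no overlap between the batches. Of the others Tff2 was at 0.40, Muc1 at 0.28, Muc5ac at 0.24, Muc13 at -0.08, Clca1 at -0.20 and Msln at -0.21 on the log2 scale, and none passed. The batch difference in Tff1 was as large as several of its differences between cultures. Agr2 lost its call without collagen replicate 3 or 5 of batch 1 or without any of the 3 batch 2 libraries (edgeR adjusted p 0.112 to 0.209).

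Cells in 2D had mean levels between those of day 7 and day 13 collagen organoids for each of the 10 genes, but not all were set apart. The 2D libraries overlapped those of day 7 for Muc5ac, Muc13 and Spdef, and those of day 13 for Muc1, Tff2 and Spdef. Spdef had at most 2 counts in any library of 2D or day 7. The share of all genes with such an order of means was not counted. Relative to day 7 collagen, 7 of 9 genes were higher in 2D and 1 was lower, beside 26.4% and 24.8% of all tested genes. Tff2 differed most, by 2.92 ± 0.33 (SE, log2 fold change), then Muc1 by 2.67 ± 0.16, Agr2 by 2.27 ± 0.34, Tff3 by 1.89 ± 0.30, Clca1 by 1.28 ± 0.15 and Tff1 by 0.85 ± 0.16. Msln was lower in 2D, at -0.54 ± 0.10. Muc13 is the last of the 7, but it had at most 2 counts in any library of either group and its fold change is not given; its call was lost in 13 of 17 alternatives. Muc5ac was at 0.48 ± 0.26 (edgeR adjusted p = 0.129). With the 2D libraries split, a choice made after the data were seen, Muc5ac was at 0.87 ± 0.23 with replicates 1 to 3 alone. It was at 0.04 ± 0.23 with replicates 4 to 6 alone, and both values are description only.

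Relative to day 13 collagen, 7 of 9 genes were lower in 2D and Msln was higher, beside 23.3% lower and 26.3% higher over all tested genes. Muc5ac was at -3.01 ± 0.22 (SE, log2 fold change), Clca1 at -2.80 ± 0.12, Tff1 at -1.71 ± 0.14, Tff3 at -1.23 ± 0.23 and Agr2 at -1.02 ± 0.23, and Msln was at 0.97 ± 0.09. For Muc13, with 8 counts over the 6 libraries of 2D, the day 13 to 2D ratio of summed counts was 8.01 (95% exact conditional interval 3.86 to 19.2). Muc1 passed narrowly at -0.26 ± 0.12 (edgeR adjusted p = 0.0881) with overlapping groups, and missed the threshold without 2D replicates 1, 2 or 3 or collagen replicates 1, 3 or 5, each left out singly (0.101 to 0.177). Tff2 did not pass at -0.05 ± 0.24 (edgeR adjusted p = 0.881). That value averages 2 unlike sets of 2D libraries. The sets were read off these same libraries, so the split values are description only. With replicates 1 to 3 alone Tff2 was at 0.47 ± 0.15, and with replicates 4 to 6 alone at -0.86 ± 0.15. The TMM scaling factor was 0.738 to 0.772 in the former set and 1.04 to 1.06 in the latter, and its part in the split was not tested.

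**Figure D3:**
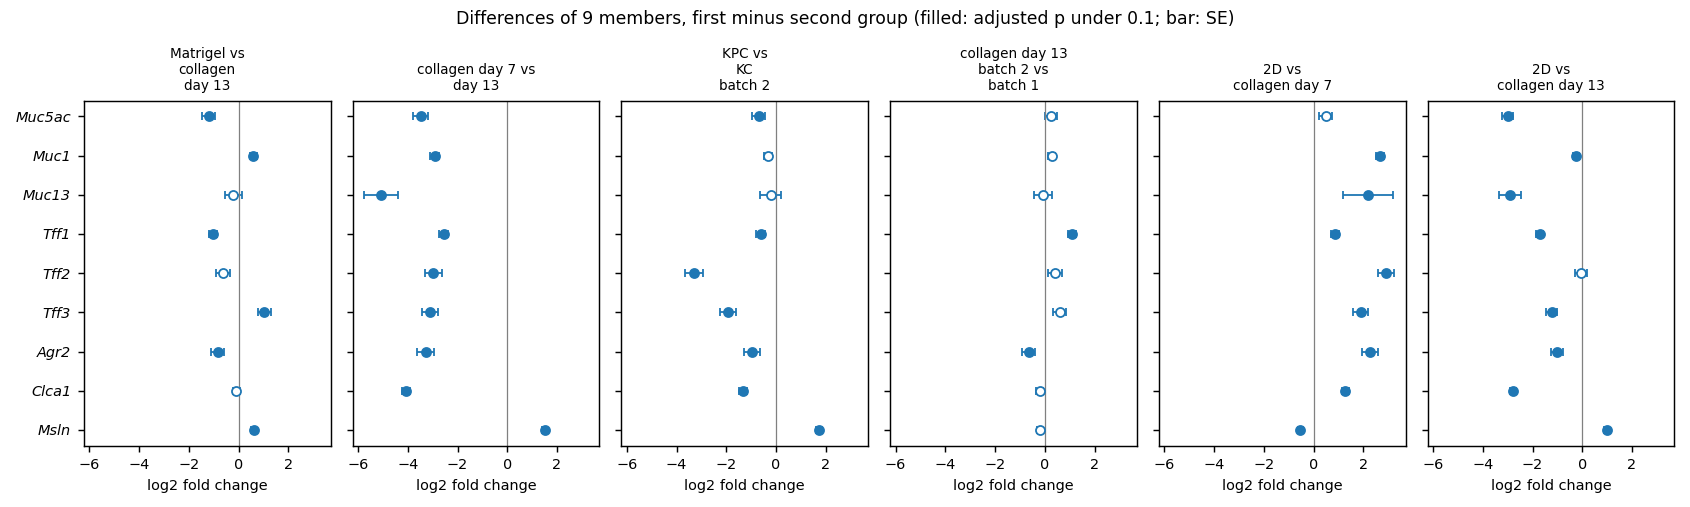
Log2 fold change (horizontal axis, first minus second group) of the 9 tested genes in the 6 comparisons, with SE bars; filled points passed an adjusted p under 0.1. At day 7 of collagen culture 8 genes lie between -5.09 and -2.56 and Msln at 1.51. The lowest point, Muc13 at -5.09, rests on 1 count in all at day 7, so its size is poorly determined. The Muc13 point in 2D against day 7 rests on at most 2 counts in any library of either group. In Matrigel the points fall on both sides of 0.

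Over the 23 libraries Msln correlated negatively with each of the other 8 tested genes (Pearson r of log2 CPM -0.79 to -0.55), as a description of libraries that share groups and batches. The highest correlation between 2 of the genes was that of Muc5ac with Tff1 (r = 0.94), and Tff2 with Tff1 had the lowest among the genes other than Msln (r = 0.29). The tested genes whose pattern was most like a member's, by Pearson r over the 23 libraries, were Ckmt1 for Clca1 (0.97), Atp1b1 for Muc1 (0.94), Gpa33 for Muc13 (0.95), Plpp3 for Muc5ac (0.98) and Fer1l6 for Tff1 (0.99). For Tff2 it was Bnip3l (0.97), for Tff3 Tc2n (0.96), for Agr2 Acsm3 (0.95) and for Msln Cldn6 (0.92). Next for Tff1 came its antisense neighbour Gm15318 (0.98), whose reads may be those of Tff1. Gkn2, a gastrokine secreted by gastric surface cells, was also among the 3 most like Muc5ac (0.97), and Spink4, a goblet cell peptide, among the 3 most like Tff2 (0.94).

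To place the 10 genes in their pathway, 6 lists of companion genes (other mucins, enzymes of mucin O-glycosylation, goblet and mucous cell products, folding proteins of the endoplasmic reticulum, transcription factors of mucous cells, and genes of gastric surface and neck cells) were read from the same fit. They hold 135 genes, of which 86 were tested. The lists were chosen with earlier results of these data known, so their counts and medians are description and no independent evidence. At day 7 of collagen culture 64 of the 86 were lower and 8 higher than at day 13, with a median log2 fold change of -0.94, beside 27.1% lower, 28.1% higher and a median of 0.01 over all tested genes. By list, 5 of 6 other mucins, 12 of 14 goblet and mucous products, 14 of 16 folding genes, 13 of 17 transcription factors, 9 of 14 gastric genes and 11 of 19 glycosylation genes were lower.

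Companion genes named in this paragraph and the next had groups without overlap and a larger group mean of at least 20 CPM. Of such genes, those furthest down at day 7 were Mucl3 (a mucin-like gene, -4.20 ± 0.34, SE), Fut2 (a fucosyltransferase of secreted glycans, -4.03 ± 0.33) and Gkn1 (a gastrokine, -3.91 ± 0.32). The glycosylation list also moved the other way for 5 of its genes, among them Gcnt1 (1.14 ± 0.17), which starts core 2 branches on O-glycans, Galnt1 (138 CPM at day 7 against 69.4 at day 13) and Galnt10 (0.44 ± 0.12), which add the first sugar. In 2D against day 13 collagen 55 of the 86 genes were lower and 6 higher (median -0.66), beside 23.3% and 26.3% of all tested genes. Muc3 (-3.70 ± 0.35), Mucl3 (-3.61 ± 0.25) and Muc3a (-3.29 ± 0.38) were furthest down in 2D, and Aqp5, a water channel of secretory glands (1.95 ± 0.26), and Wfdc2, a secreted protease inhibitor (1.77 ± 0.16), were furthest up. Muc3 and Muc3a are close relatives and their reads may have been split between them. In 2D against day 7 collagen 35 of the 86 genes were higher and 13 lower (median 0.29), beside 26.4% and 24.8% of all tested genes, with 11 of 16 folding genes higher and none lower. Spink4 (2.69 ± 0.36), the epithelial transcription factor Ehf (2.48 ± 0.32) and Fut2 (2.09 ± 0.35) were highest in 2D, and Anxa10, an annexin of gastric epithelium, was at -1.25 ± 0.17, Galnt1 at -1.11 ± 0.14 and the intestinal factor Cdx2 at -1.08 ± 0.18.

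In Matrigel against collagen 12 of the 86 companion genes were higher and 25 lower (median -0.18), beside 6.62% and 6.29% of all tested genes. Clca3b, a relative of Clca1, was higher in Matrigel by 2.86 ± 0.29 (SE, log2 fold change), at 36.4 against 4.90 CPM on average, whereas Clca1 itself did not pass. Pigr, the receptor that carries IgA across epithelia (2.29 ± 0.16), and Fcgbp, a mucus protein (1.84 ± 0.43), were also higher, and Scin (-1.57 ± 0.27), Mucl3 (-1.48 ± 0.28) and Klf4, a transcription factor of goblet cells (-1.35 ± 0.15), were lower. In KPC against KC organoids 13 of the 86 companion genes were higher and 23 lower (median -0.14), beside 9.58% and 10.4% of all tested genes. Pigr fell to 1 to 4 counts per library from 50 to 66, Muc3 by 3.31 on the log2 scale and Galnt6 by 2.34, while Zg16, a lectin of mucus granules, rose (3.03 ± 0.37), as did Tspan1 (1.82 ± 0.27) and Lypd8 (1.52 ± 0.26). Between the batches of KC organoids 29 of the 86 companion genes were higher in batch 2 and 20 lower (median 0.14), beside 19.3% and 18.1% of all tested genes. Furthest apart were Psca (2.73 ± 0.26), Mucl3 (1.90 ± 0.26) and Bcas1 (1.55 ± 0.19) on the one side and Fut2 (-1.12 ± 0.26), St6galnac6 (-1.06 ± 0.24) and Cdx2 (-1.02 ± 0.20) on the other.

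**Figure D4:**
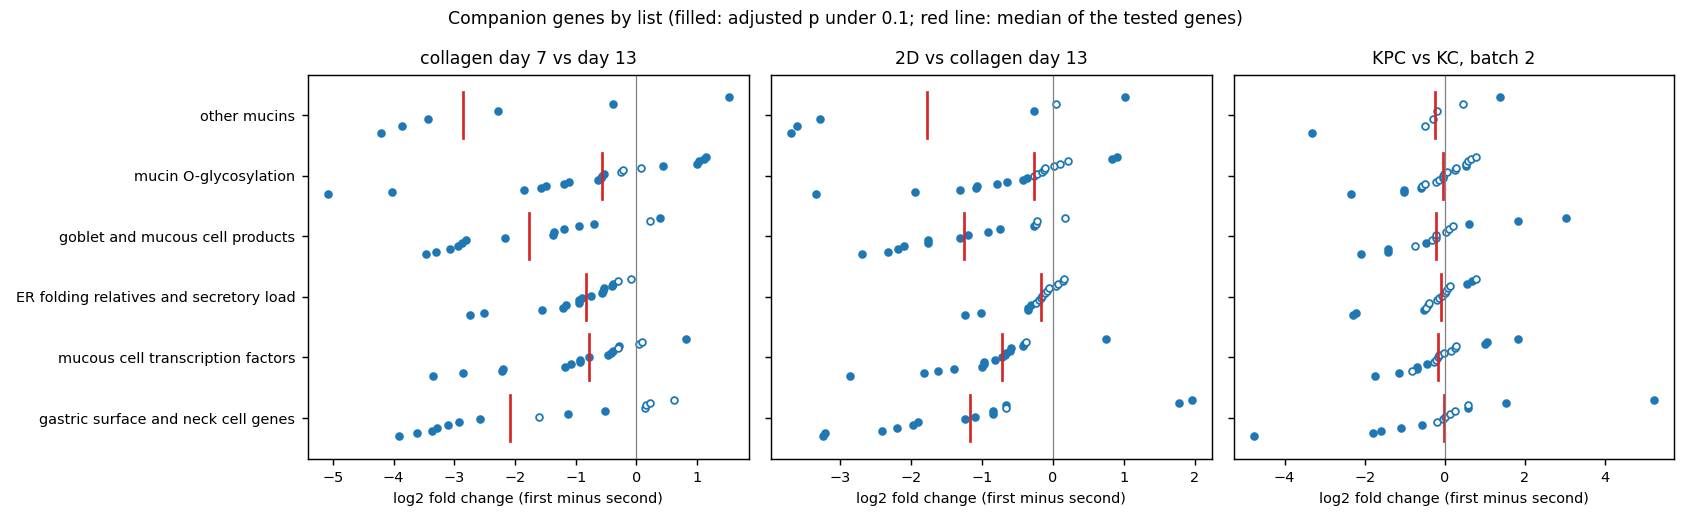
Log2 fold change (horizontal axis) of the 86 tested companion genes in 6 lists, for day 7 against day 13 collagen, 2D against day 13 collagen and KPC against KC; each point is a gene, filled where the adjusted p was under 0.1, and red lines are list medians. The medians at day 7 range from -2.86 for the other mucins to -0.57 for mucin O-glycosylation, and those of KPC lie between -0.25 and -0.02.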

How the data were processed

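Mouse PDAC cells in 2D, Matrigel or collagen were profiled by bulk 3′-end UMI RNA sequencing (23 libraries). The authors deposited raw UMI counts per gene for each library; the submitters' processing notes name the Drop-seq pipeline 1.0, GENCODE M25 and the mouse build GRCm38. UMIs collapse amplification copies, and 3′ counting gives no level per length, so levels were compared between libraries and not between genes. Whether counting used strand is not given in the sources used here.

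Groups followed the labels; some alleles of the 2 lines are not reported here. Counts of all 23 libraries were fitted together with edgeR 4.0.16 (R 4.3.3, limma 3.58.1), using filterByExpr, TMM and the quasi-likelihood F-test, with Benjamini-Hochberg adjustment over 11144 genes and a threshold of 0.1; the model was tested on simulated data. Correlations used log2 CPM with a prior count of 2. Alternatives included DESeq2 1.42.0, other scalings and filters, and leaving out each library. The 10 genes, companion lists and markers were chosen with earlier results of these data known. Companion genes were named by rule: in each comparison the 3 highest and 3 lowest log2 fold changes among called genes without overlap and with at least 20 CPM in the higher group; for each member, genes among its 3 most correlated; and relatives or partners of a member (Muc16, Clca paralogs, Foxa3, Atoh1, Creb3l1). Replicate numbers did not pair libraries: correlations of same-numbered deviations were -0.12 to 0.19, and in no comparison was every one above 0.1. Gene positions are from GENCODE M21 and promoters from RefSeq, both GRCm38.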

Additional observations from a re-analysis of the deposited data

Results flagged for a closer look

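Msln in the 2D cultures stood out by 1 library. Replicate 2 was at 559 CPM, while the next highest library was at 486 CPM and the lowest at 459.6 CPM, so its gap to the nearest library was 0.7355 of the range of the group. Of the gene and group pairs with 4 to 10 libraries 20 were examined in this way, and chance alone gives such a gap in about 1 of 20. Both fold changes of Msln that use the 2D cultures passed the threshold without that library.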

How the results depend on the processing

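Of 928 recomputed fold changes of single genes, 843 kept direction and side of the threshold, 48 lost the call, 27 gained it and 10 changed sign. The number of called genes stayed within 1.5 times in 96 of 104 recomputations. The share of all tested genes called under each alternative was not counted, so these numbers describe the chosen genes alone. In KPC against KC it was 4 to 7 with each library left out, lowest without KPC replicate 1. Between batches, where 2 genes were called, it was 1 at an adjusted p under 0.05, 4 without a filter, 4 when each library had to hold 10 counts of a gene, 5 with these groups fitted alone and 1 to 3 with each library left out, being 1 without batch 1 replicate 3 or batch 2 replicate 1 or 2. Sign changes concerned uncalled values of Muc13 and Tff2. Muc13 became 0.12 with the replicate block and went from -0.36 to 0.11 with each library left out (Matrigel against collagen, highest without collagen replicate 4), from -0.48 to 0.10 (KPC against KC, highest without KPC replicate 1), and, between batches, became 0.26 with the block and went from -0.21 to 0.25 (highest without collagen replicate 4). Tff2 in 2D against day 13 became 0.47 with 2D replicates 1 to 3 only and -0.24 to 0.071 with each library left out, being above 0 without 2D replicate 4, 5 or 6 or collagen replicate 1. The causes were not tested. With replicate number as a block the called genes were 7 in place of 6 (Matrigel, Tff2 added at adjusted p = 0.0210), 9 (day 7), 7 (KPC), 2 (batches, Msln in place of Agr2), and 7 in place of 8 in 2D against day 7 (Muc13 lost, 0.216) and against day 13 (Muc1 lost, 0.104), by edgeR. Depth limits Muc13 and Spdef, whose counts were at or under 3 in every library of 2D and day 7.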

Other observations

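Of the gel-forming mucins other than Muc5ac, Muc2, that of the intestine, and Muc6, that of gastric neck glands, had group means of at most 0.551 and 0.664 CPM. Muc5b, that of the airway, was at 4.20 to 11.5 CPM in collagen at day 13 and 2.65 to 5.33 CPM in batch 2 KC organoids, and at most 4.12 CPM in any library of the other groups. The membrane mucin Muc4 was at 5.11 to 5.83 CPM in Matrigel and at or under 2.09 CPM in every other library. Muc2, Muc6, Muc5b and Muc4 were named outside the rule for companion genes. Among relatives of Clca1, Clca2, Clca3a1, Clca3a2, Clca4a and Clca4b had group means of at most 4.04 CPM, and Clca3b, at 34.9 to 39.0 CPM in Matrigel, stayed at or under 10.6 CPM elsewhere.

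Factors that accompany Spdef in mucous cells were unevenly present. Atoh1, which specifies intestinal secretory cells, was at most at 1.58 CPM in any library. Foxa3, a forkhead factor of goblet cells, had a mean of 2.36 ± 1.03 CPM (SD, n = 3) in collagen at day 7, 25.7 ± 9.89 (n = 5) at day 13 and 50.1 ± 6.59 (n = 3) in KPC organoids, whose range overlapped that of batch 2 KC organoids (41.1 ± 4.93, n = 3). Creb3l1, a transcription factor of the secretory pathway, was at 1.45 ± 0.272 CPM at day 7 and 21.7 ± 6.57 CPM in Matrigel (n = 3 each).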
